A study of Rattus norvegicus with 12 samples.

Results

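The genes described here are those that measured at least 2-fold apart between DAC2, a rat embryonic stem (ES) cell line, and FHH-REF2, a rat culture labelled as embryonic fibroblasts (EF) whose arrays carried an ES-like profile. A gene was taken when the means of the DAC2 and REF2 arrays differed by at least 1 log2 unit and the higher of the 2 lines had a mean log2 level of 5 or above. Each gene was represented by 1 probe set, the set of probes on the array that reports it. Of 14218 named genes on the array, 9759 reached a level of 5 in DAC2 or REF2, and 421 of them met the rule (4.31%). DAC2 was the higher line for 114 (1.17%) and REF2 for 307 (3.15%). The genes were thus chosen by their measured difference in these 4 arrays, so every DAC2 against REF2 value below is a description and carries no test.

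The study measured RNA on 12 rat arrays, 2 for each of 6 lines or cultures, and its design compared induced pluripotent stem (iPS) cells with ES cells. A1 and A2 were iPS lines from the FHH rat strain, DAC2 and DAC8 were ES lines whose strain the labels do not give, and REF1 and REF2 were FHH embryonic fibroblasts prepared at e14.5, in embryonic days. RNA came from iPS and ES cells 5 days after passage and from fibroblasts 6 days after passage. By the labels, ES and iPS cells grew in 2i medium and fibroblasts in a serum medium called MEF medium. They record growth on mouse feeder fibroblasts for the iPS lines. The labels mark DAC2 as positive for SSEA-1 and Sox2 and give REF2 a fibroblast morphology. The labels give neither the sex of any line nor the culture behind each array. The labelled medium, the day of collection and the line itself all change together between DAC2 and REF2, and the strain may also differ. Their parts in any difference cannot be told apart. Where a test is given for other lines, its p-value measures only the spread between arrays, which may be technical.

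The REF2 arrays did not carry the markers of their label. Their summed linear signal over 36 fibroblast and mesenchyme markers was 7179.8 and 7135.33, close to 6720.73 and 6628.4 in DAC2, whereas the REF1 arrays reached 167738 and 170173. Klf2 measured 12.13 ± 0.012 in DAC2 and 12.30 ± 0.016 in REF2 (log2 level, mean ± SD, n = 2 arrays, as in all such values below), Klf4 10.01 ± 0.015 in DAC2 and 9.52 ± 0.035 in REF2, and Esrrb 10.28 ± 0.0093 in DAC2 and 9.96 ± 0.026 in REF2. These transcription factors of naive pluripotency, with Sox2 (-0.09 for DAC2 minus REF2) and the epithelial adhesion gene Epcam (0.29), all lay within 2-fold between the lines. The arrays labelled DAC8, the other ES line, had a fibroblast sum of 154145 to 154714 and lay with REF1. Across the 9759 genes DAC2 and REF2 correlated at 0.963, against 0.998 for the DAC2 arrays with each other and 0.997 for the REF2 arrays, and genes are not independent replicates. The actin 3' minus 5' difference, a sign of RNA quality, was 0.88 in both DAC2 arrays and 0.94 and 1.05 in REF2, and its part in the differences was not tested.

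Rat ES cells are kept undifferentiated by inhibitors that block ERK signalling and the kinase GSK3, together with LIF, and they share a core of transcription factors whatever line they come from. ES cells usually keep Hox genes, which lay out the body axis, silent, and they differ from line to line in the expression of imprinted genes, whose copies are marked by parent of origin. In female ES cells both X chromosomes can be active, and in differentiated female cells the RNA Xist coats and silences an X chromosome.

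**Figure D1:**
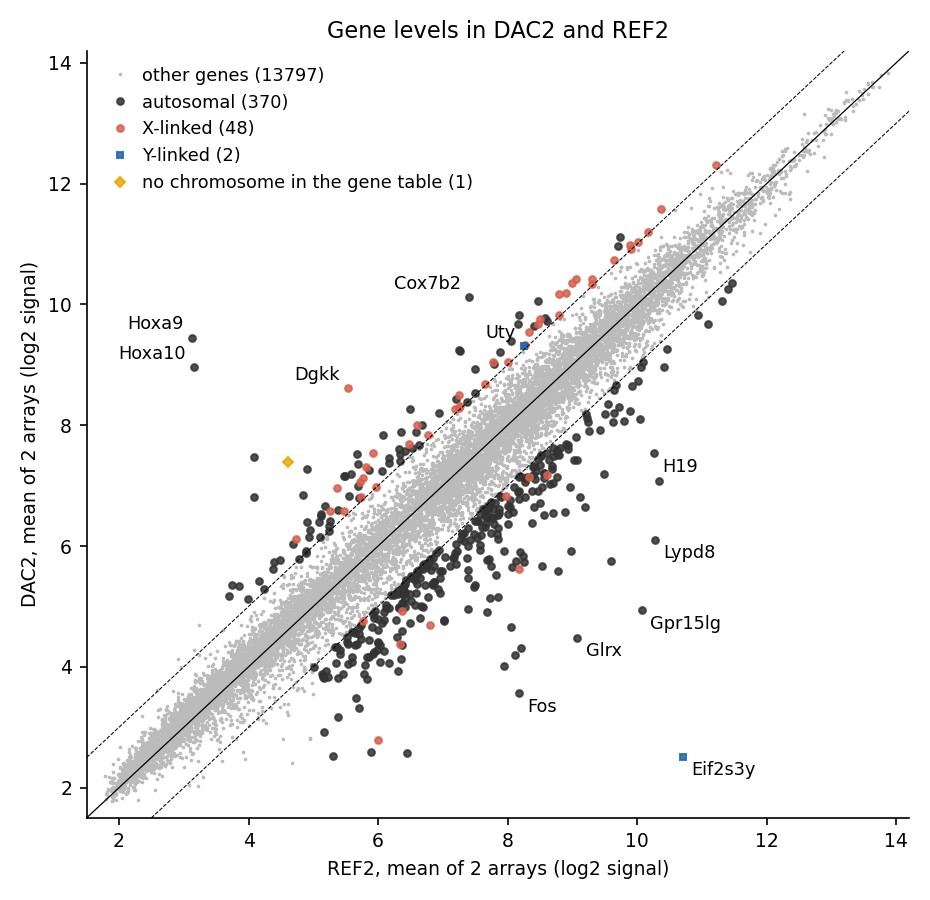
Log2 signal of 14218 genes in REF2 (x axis) and DAC2 (y axis), each the mean of 2 arrays, with dashed lines at a 2-fold difference. Coloured points are the 421 genes of the rule, by chromosome class: 370 autosomal, 48 X-linked, 2 Y-linked and 1 with no chromosome in the gene table. Hoxa9, Hoxa10 and Eif2s3y lie furthest from the diagonal.

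None of the 421 genes had overlapping arrays, which follows from the rule and the small spread between the arrays of a line, and is no further support. The median absolute difference was 1.27 for the genes higher in DAC2 and 1.34 for those higher in REF2. Differences of 4-fold or more were found for 9 and 52 genes, and of 16-fold or more for 2 and 5. The SD between the arrays of a line had a median of 0.077 over these genes in both DAC2 and REF2 and reached 0.58 and 0.56. Between the arrays of DAC2, and between those of REF2, 0 genes with either array at 5 were 2-fold apart. Levels under 5 were treated as near background, without a detection call. For 24 genes higher in DAC2 and 90 higher in REF2 the lower line was below 5, so the size of their differences is less certain. Just inside the rule lay Dhtkd1 (-1.0001) and Anks1b (-1.0006), and just outside it Grk5 and Gnas (both -0.999). By level, Fsd1l entered at 5.01 in REF2 and Ccn6 fell out at 4.9997 and Spry1 and Egr1 at 4.98.

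Set beside the other lines, DAC2 stood apart for some genes and REF2 for others. The rule takes genes with a gap between DAC2 and REF2, which favours such positions. Their share over all genes was not counted. Of the 114 genes higher in DAC2, the DAC2 arrays lay above all 10 other arrays for 72 and the REF2 arrays lay below all 10 for 27. Of the 307 higher in REF2, the REF2 arrays lay above all others for 143 and the DAC2 arrays below all others for 119. Both lines stood apart in 5 genes higher in DAC2 and 9 higher in REF2, and neither did in 20 and 54. In 21 and 56 genes the other 4 lines were all below 5. Of 138 genes with more than 1 probe set, 75 had another set at 5 or above. Those 93 other sets had the sign of the chosen set in 87 cases and were also 2-fold apart in 41, and 0 were 2-fold apart the opposite way.

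The genes furthest apart on the autosomes were members of the Hoxa cluster, which encodes transcription factors of posterior and limb identity. Hoxa5, Hoxa7, Hoxa9, Hoxa10 and Hoxa11 met the rule, and all 5 were higher in DAC2. Hoxa3l1, measured in the same stretch, did not meet it, at 6.25 in DAC2 and 5.58 in REF2. For Hoxa9 the arrays measured 9.47 and 9.43 in DAC2 and 3.15 and 3.10 in REF2. Both DAC2 arrays were high and both REF2 arrays were below 5. Of the other lines, DAC8 and REF1 were high and the iPS lines were below 5 (4.53 ± 0.13 in A1, 2.29 ± 0.098 in A2, 8.003 ± 0.00033 in DAC8 and 8.44 ± 0.08 in REF1). Hoxa10 measured 8.97 and 8.95 in DAC2 and 3.18 and 3.14 in REF2. DAC2 was again high and REF2 low, and DAC8 and REF1 lay just under DAC2 (4.67 ± 0.092 in A1, 2.94 ± 0.22 in A2, 8.83 ± 0.055 in DAC8 and 8.83 ± 0.048 in REF1). The DAC2 arrays lay above every other array for both genes.

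The remaining Hoxa genes were less far apart. Hoxa5 measured 7.06 and 6.56 in DAC2 and 4.08 and 4.09 in REF2, Hoxa7 7.32 and 7.24 in DAC2 and 5.08 and 4.74 in REF2, and Hoxa11 7.46 and 7.31 in DAC2 and 4.35 and 4.86 in REF2. REF2 was below 5 for Hoxa5 and Hoxa11 in both arrays, and for Hoxa7 in its second array. In DAC8 and REF1 Hoxa5 was higher than in DAC2, at 9.03 ± 0.036 and 9.54 ± 0.11. The transcript Hoxa11-as, which runs antisense to Hoxa11, measured 7.05 and 6.65 in DAC2 and 4.82 and 4.86 in REF2. Both transcripts were thus higher in DAC2. Each was read by its own probe set, and how far these tell the strands apart was not tested. Hoxa5, Hoxa7, Hoxa9, Hoxa10 and Hoxa11-as formed the longest run of neighbouring measured genes among the 421. The genes beside the run were within 2-fold: Hoxa3l1 differed by 0.67, Skap2 by -0.30, Hibadh by -0.71 and Tax1bp1 by -0.11 (log2, DAC2 minus REF2). Other Hox clusters did not share the difference. Of the measured genes at 5 or above, 2 Hoxb genes (Hoxb3 0.01, Hoxb4 0.06) and 3 Hoxd genes (Hoxd4 -0.45, Hoxd8 -0.53, Hoxd9 -0.75) were all within 2-fold, and all 4 measured Hoxc genes were below 5 in both lines.

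**Figure D2:**
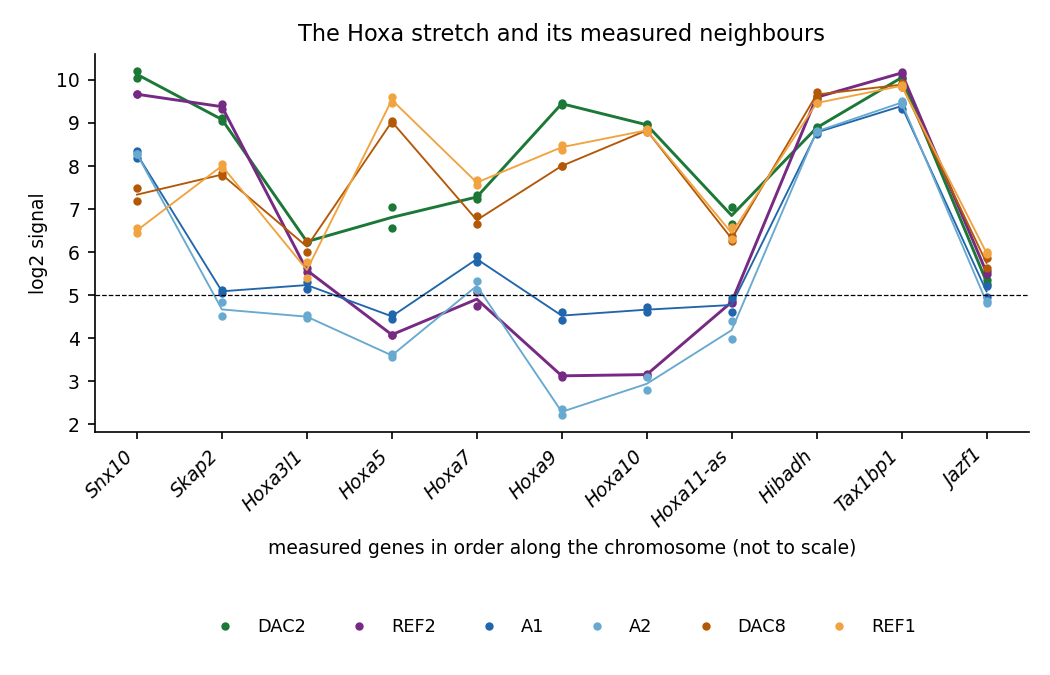
Log2 signal of 11 measured genes in their order along the chromosome, from Snx10 to Jazf1, in the 6 lines. Points are single arrays, lines join the means of 2 arrays, and the dashed line marks a level of 5. From Hoxa5 to Hoxa11-as DAC2 runs well above REF2. There it lies below DAC8 and REF1 for Hoxa5 and above them for Hoxa9, and on either side of that run DAC2 and REF2 come together.

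Because Hoxa9 and Hoxa10 stood apart together, the 250 bases before their starts are shown, from RefSeq on the build GRCr8, both on the minus strand. Hoxa9 is at chr4:82657049-82657298 and Hoxa10 at chr4:82671491-82671740. Capitals mark matches to CNATAAA, the core bound by Cdx2 and by posterior Hox proteins, searched on both strands.
Hoxa9: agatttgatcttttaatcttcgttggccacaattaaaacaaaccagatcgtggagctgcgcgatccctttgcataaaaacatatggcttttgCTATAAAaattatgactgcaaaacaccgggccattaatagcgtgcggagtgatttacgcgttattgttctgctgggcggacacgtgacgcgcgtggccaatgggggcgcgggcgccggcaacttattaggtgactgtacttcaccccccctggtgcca
Hoxa10: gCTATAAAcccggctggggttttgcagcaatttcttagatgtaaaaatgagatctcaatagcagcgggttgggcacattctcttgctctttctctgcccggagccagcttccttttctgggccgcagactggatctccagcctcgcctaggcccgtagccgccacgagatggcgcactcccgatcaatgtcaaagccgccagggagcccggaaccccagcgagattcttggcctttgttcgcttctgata
Each window held 1 match, CTATAAA, and in each it overlapped the TATA box letters TATAAA. The windows held 18 and 14 CpG dinucleotides. A second listed Hoxa10 start, with the window chr4:82665923-82666172, held 0 matches. CNATAAA was found in 7.23% of the 83 windows of genes higher in DAC2, 7.69% of 247 windows of genes higher in REF2, 6.35% of 8199 windows of all genes at 5 or above, and 10.1% of all 33469 promoters of this length (the 8199 include the members). These are letter matches, not measured binding.

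Cdx2, a homeobox factor of the posterior body axis, intestine and trophoblast, was also higher in DAC2. The arrays measured 9.80 and 9.86 in DAC2 and 8.15 and 8.19 in REF2, against 4.72 ± 0.11 in A1, 4.70 ± 0.37 in A2, 5.13 ± 0.30 in DAC8 and 5.01 ± 0.14 in REF1. Both ES-like lines were far above the other 4, and DAC2 was above REF2 by 1.66. Its relative Cdx1 differed by 0.80 and did not reach 2-fold. Urad, the gene next to Cdx2 among those measured, was higher in DAC2 by 1.47.

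Beyond the Hoxa genes, Gulp1, an adaptor for engulfing dead cells, measured 7.53 and 7.41 in DAC2 and 4.46 and 3.69 in REF2. REF2 was below all other arrays, with 7.10 in A1, 7.13 in A2, 8.41 in DAC8 and 8.36 in REF1, so here REF2 was the line apart. Cox7b2, a cytochrome c oxidase subunit, measured 10.12 and 10.11 in DAC2 and 7.49 and 7.32 in REF2. It was below 5 in every other line, as was RT1-T24-4, a gene of the non-classical MHC class I family, at 9.26 and 9.24 in DAC2 and 7.24 and 7.27 in REF2. Both genes were thus measured above 5 in the ES-like lines only, and higher in DAC2. Dusp26, a protein phosphatase, measured 9.28 and 9.16 in DAC2 and 7.35 and 7.17 in REF2, and Ptgs1, the cyclooxygenase that starts prostaglandin synthesis, 7.91 and 7.77 in DAC2 and 6.07 and 6.09 in REF2. For both the DAC2 arrays exceeded all 10 others. Arhgdib, which holds small GTPases in their inactive state, measured 7.17 and 7.15 in DAC2 and 5.48 and 5.48 in REF2 and was again highest in DAC2.

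The other autosomal genes with large differences towards DAC2 were expressed more strongly in lines outside the pair. Scg3, a protein of neuroendocrine secretory granules, measured 7.53 and 7.53 in DAC2 and 5.76 and 5.58 in REF2, and the iPS lines were higher than both, at 9.18 ± 0.06 and 9.17 ± 0.019. Mllt3, which reads acylated histones, measured 8.35 and 8.18 in DAC2 and 6.58 and 6.40 in REF2, with 8.93 in A1, 8.81 in A2, 7.53 in DAC8 and 7.60 in REF1. Ddah1, which breaks down an inhibitor of nitric oxide synthases, measured 7.29 and 7.43 in DAC2 and 5.71 and 5.68 in REF2, with 8.55 in A1, 8.38 in A2, 10.98 in DAC8 and 10.78 in REF1. For Mllt3 and Ddah1 the REF2 arrays lay below all others, while for Scg3 REF2 stood above DAC8 (2.56 ± 0.12) and REF1 (2.88 ± 0.0066).

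Genes higher in REF2 were more numerous, at 307 against 114. Gpr15lg, which encodes a secreted ligand of the receptor GPR15, measured 10.06 and 10.08 in REF2 and 5.08 and 4.80 in DAC2. The other lines were all high (12.79 in A1, 12.44 in A2, 10.53 in DAC8 and 9.84 in REF1), so the DAC2 arrays were the low ones. Glrx, the thiol reductase glutaredoxin, showed the same arrangement, with 9.10 and 9.06 in REF2 and 4.75 and 4.22 in DAC2, and 9.04 in A1, 8.90 in A2, 8.13 in DAC8 and 8.23 in REF1. A second Glrx probe set measured 7.99 in REF2 and 4.94 in DAC2. The 250 bases before the Glrx start, at chr2:7073545-7073794 on the plus strand of GRCr8 (RefSeq), are shown for contrast with the Hoxa windows, as a gene on which DAC2 is the low line. Capitals mark a match to TGANTCA, the site of the AP-1 factors, searched on both strands.
Glrx: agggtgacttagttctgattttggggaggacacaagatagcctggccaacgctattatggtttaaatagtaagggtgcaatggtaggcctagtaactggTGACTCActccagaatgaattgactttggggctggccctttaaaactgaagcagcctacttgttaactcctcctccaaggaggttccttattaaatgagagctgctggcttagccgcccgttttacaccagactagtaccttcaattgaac
The window held 1 AP-1 match and 3 CpG dinucleotides. AP-1 letters were found in 8.43% of the windows of genes higher in DAC2, 5.26% of those higher in REF2 and 4.07% of those of all genes at 5 or above (6.34% of all promoters in the table).

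Several genes were high in REF2 alone. Lypd8, a membrane-anchored protein of intestinal epithelium, measured 10.36 and 10.20 in REF2 and 6.19 and 6.02 in DAC2, and was below 5 in the other lines. Enpp2, or autotaxin, the secreted enzyme that makes lysophosphatidic acid, measured 8.10 and 8.13 in REF2 and 3.97 and 4.44 in DAC2, with no other line at 5. Mia, a small secreted protein of cartilage and melanoma, measured 8.28 and 8.12 in REF2 and 4.29 and 4.32 in DAC2. Ly75, an endocytic receptor of dendritic cells and thymic epithelium, measured 8.03 and 8.08 in REF2 and 4.64 and 4.66 in DAC2, and Grm3, a metabotropic glutamate receptor, 6.02 and 5.76 in REF2 and 2.57 and 2.63 in DAC2. For these 5 genes the 2 REF2 arrays exceeded all 10 others, and the 4 other lines had means below 5. Lpar1, a receptor for the product of Enpp2, was higher in DAC2 by 1.07.

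Transporters and secreted proteins followed. Slc7a8, an amino acid transporter, measured 10.42 and 10.24 in REF2 and 7.48 and 6.67 in DAC2, with 5.46 in A1, 5.53 in A2, 6.14 in DAC8 and 5.86 in REF1. Abcg2, an efflux pump of stem cells and barrier tissues, measured 9.11 and 8.84 in REF2 and 5.92 and 5.90 in DAC2, with 7.10 in A1, 7.15 in A2, 6.42 in DAC8 and 6.04 in REF1. Selenop, the selenium carrier of plasma, measured 9.61 and 9.59 in REF2 and 5.82 and 5.67 in DAC2, with 5.34 in A1, 5.68 in A2, 7.44 in DAC8 and 7.39 in REF1. REF2 exceeded all other arrays for these 3 genes, and for Abcg2 DAC2 was also below all others. The difference for Selenop was -1.97 when its probe sets were averaged, against -3.86.

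Serping1, Ripor2 and Sox4 were low in DAC2 and high in the iPS lines. Serping1, the inhibitor of complement C1, measured 8.03 and 7.87 in REF2 and 4.19 and 3.83 in DAC2, with 8.93 in A1, 8.38 in A2, 3.14 in DAC8 and 3.11 in REF1. Ripor2, an inhibitor of a small GTPase, measured 6.50 and 6.39 in REF2 and 2.44 and 2.70 in DAC2, with 7.37 in A1, 7.59 in A2, 2.25 in DAC8 and 2.24 in REF1. REF2 lay near A1 and A2 for both, and DAC2 lay below 5 with DAC8 and REF1. The mean of its probe sets gave -1.90 for Ripor2. Sox4, a transcription factor of progenitor cells, measured 8.89 and 8.67 in REF2 and 5.62 and 5.54 in DAC2, with 11.30 in A1, 11.19 in A2, 11.35 in DAC8 and 11.29 in REF1, which left DAC2 as the lowest line. Its other probe sets differed in size and in sign. One measured 6.58 in REF2 and 4.93 in DAC2, and another 5.17 in REF2 and 5.23 in DAC2. The mean of all Sox4 sets, the chosen one included, gave -1.03. Stxbp6, a regulator of vesicle fusion, was arranged otherwise, at 8.49 and 8.58 in REF2 and 5.63 and 5.73 in DAC2, with 6.61 in A1, 6.63 in A2, 8.35 in DAC8 and 7.10 in REF1. Its REF2 arrays lay above all 10 others and its DAC2 arrays below all 10 others.

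**Figure D3:**
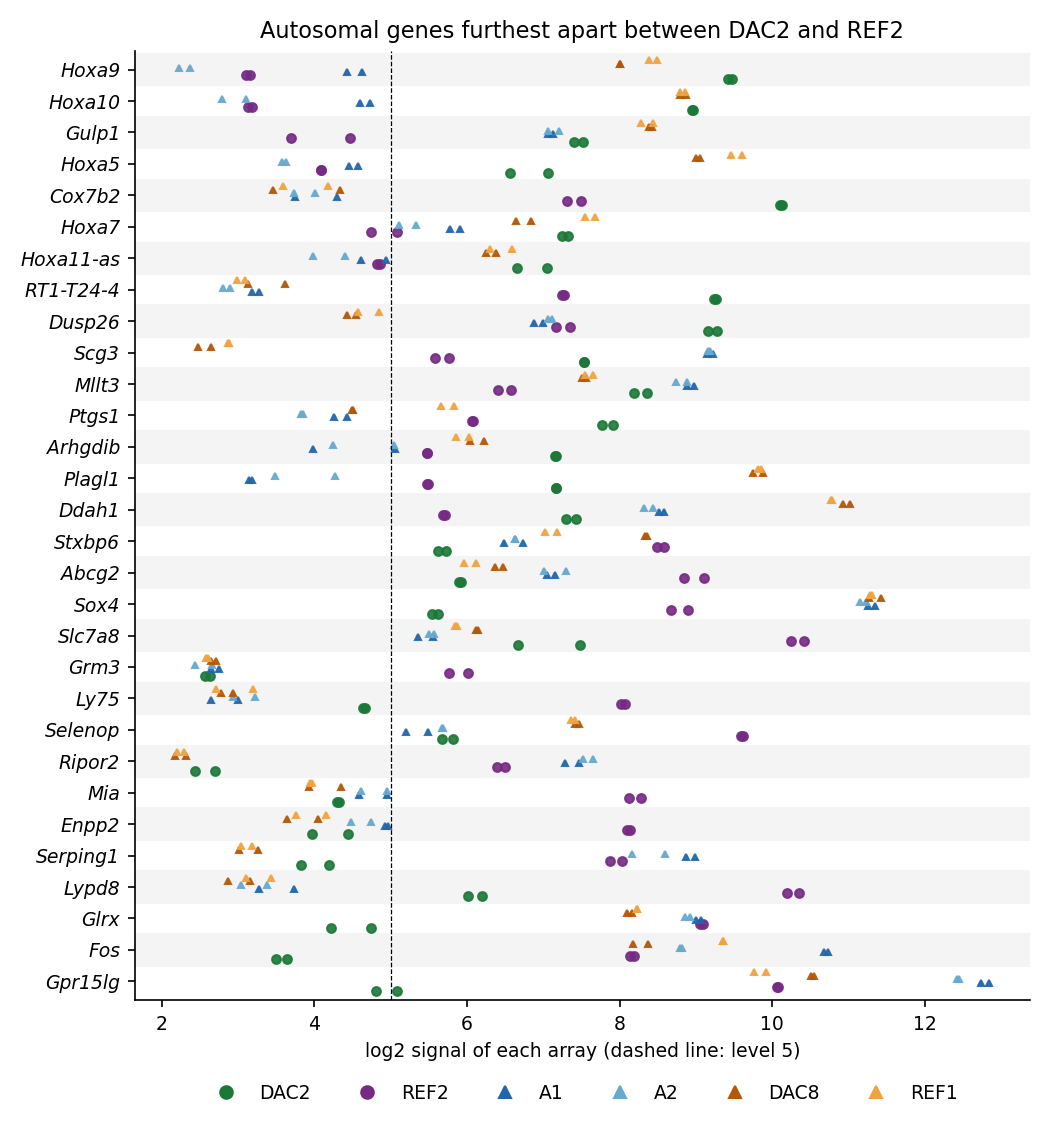
Log2 signal of every array for the 15 autosomal genes with the largest differences in each direction, ordered by the difference. Circles are DAC2 and REF2, triangles the other 4 lines, with 2 arrays a line, and the dashed line marks a level of 5. Circles of the lines do not overlap for any gene, which follows from the rule and the small spread between arrays. The triangles show which of the lines stands apart: DAC2 for Hoxa9 and Gpr15lg, REF2 for Gulp1 and Enpp2.

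Signalling genes were compared through lists of targets. For every list below, the shares of all genes at 5 or above were 1.17% higher in DAC2 and 3.15% higher in REF2. Of 16 measured targets and feedback genes of ERK signalling at 5 or above, 1 was higher in DAC2 (6.25%) and 3 in REF2 (18.75%). The median difference of the 16 was 0.41, against -0.0033 for all 9759 genes. Fos, an immediate early gene that pairs with Jun in AP-1, measured 8.14 and 8.20 in REF2 and 3.50 and 3.64 in DAC2. The DAC2 arrays were below 5 and below all 10 others (10.71 in A1, 8.80 in A2, 8.28 in DAC8 and 9.36 in REF1). A second Fos probe set near the limit measured 5.09 in DAC2 and 4.86 in REF2, and the mean of both sets differed by -2.19. Dusp1, a phosphatase of MAP kinases, measured 7.89 and 7.80 in REF2 and 6.12 and 6.48 in DAC2, and Dusp9, an X-linked relative that acts on ERK, 6.50 and 6.16 in REF2 and 4.39 and 4.37 in DAC2. With probe sets averaged Dusp1 differed by -1.02. Dusp5, the nuclear ERK phosphatase, went the other way, at 7.55 and 7.60 in DAC2 and 6.51 and 6.33 in REF2. The feedback inhibitors Dusp6 (0.19), Spry4 (0.38) and Spry2 (-0.03) and the factors Etv4 (0.74) and Etv5 (0.42) were within 2-fold. Spry1 (-1.06) and Egr1 (-1.25), also on the list, were past 2-fold towards REF2. They missed the rule by level, both at 4.98 in REF2. The 4 phosphatases and Fos thus did not share a direction.

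Of 11 TGF-beta and BMP targets, 1 was a member: Id3, an inhibitor of helix-loop-helix factors, at 10.99 and 10.94 in DAC2 and 9.73 and 9.67 in REF2. DAC8 (12.23) and REF1 (12.14) were higher than both. Smad7 (0.98) and Id2 (0.96) came close to 2-fold, Id1 differed by 0.00, and the list's median was -0.0036. Of 11 Wnt targets and modulators, Cdx2 was the single member, with Axin2 at 0.13 and a median of -0.19. None of 14 LIF and STAT3 targets met the rule, Socs3 differed by -0.17 and Lifr by 0.44, and the median was -0.060.

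Most pluripotency genes did not separate the lines. Of 20 naive and core pluripotency genes at 5 or above, 1 was higher in DAC2 and 2 in REF2, with a median of -0.054, and 0 of 6 primed genes met the rule. Lin28a, an RNA-binding protein that blocks let-7 miRNAs, measured 9.73 and 9.62 in DAC2 and 8.21 and 8.12 in REF2, with 5.34 in A1, 5.85 in A2, 3.23 in DAC8 and 2.96 in REF1. Myc, the growth-promoting transcription factor, measured 8.64 and 8.47 in REF2 and 6.60 and 6.43 in DAC2. Nr5a2, a nuclear receptor of naive cells, measured 7.35 and 6.56 in REF2 and 5.18 and 5.27 in DAC2. DAC2 was highest of all lines for Lin28a and REF2 for Nr5a2, while Myc was higher again in DAC8 (9.37) and REF1 (9.19). Of 21 genes of DNA methylation and chromatin 0 met the rule, with Dnmt3a at -0.92, Dnmt3b at 0.25 and Ezh2 at 0.35, and of 31 cell cycle genes 0 did, from Mcm2 at -0.56 to Ccnb2 at 0.51.

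Imprinted genes differed in both directions. Of 27 at 5 or above, 2 were higher in DAC2 (7.41%, against 1.17% of all genes at 5 or above) and 6 in REF2 (22.2%, against 3.15%), with a median of -0.078. H19, a maternally expressed non-coding RNA, measured 10.28 and 10.23 in REF2 and 7.54 and 7.54 in DAC2. REF2 was near DAC8 (10.00 ± 0.045), REF1 was higher (12.29 ± 0.11), and the iPS lines were lower than DAC2. Igf2, its paternally expressed neighbour, differed by -0.04. Meg3, another maternally expressed non-coding RNA, measured 9.27 and 9.23 in REF2 and 7.96 and 7.84 in DAC2. Sgce, a sarcoglycan, measured 9.45 and 9.40 in REF2 and 7.97 and 7.89 in DAC2, and Peg10, a retrotransposon-derived gene of placenta, 5.26 and 5.05 in REF2 and 3.53 and 4.12 in DAC2. These 2 are neighbours, both paternally expressed in rodents, and with Casd1 beside them, at 5.83 and 5.73 in REF2 and 3.88 and 3.89 in DAC2, they formed a run of 3 genes higher in REF2. Further along the same stretch Pon3 (-1.80) and Pdk4 (-1.10, or -0.52 with probe sets averaged) were also higher in REF2, and Pon2 (-0.95) and Slc25a13 (-0.94) missed 2-fold. Cd81, a tetraspanin, measured 7.84 and 7.74 in REF2 and 6.41 and 6.31 in DAC2, and Nnat, or neuronatin, 11.44 and 11.37 in REF2 and 10.19 and 10.32 in DAC2. Higher in DAC2 were Plagl1, a zinc finger factor, at 7.17 and 7.16 in DAC2 and 5.49 and 5.47 in REF2, and Ndn, or necdin, at 6.79 and 6.79 in DAC2 and 5.79 and 5.63 in REF2. Maternally and paternally expressed genes stood on the REF2 side alike, and the rest of the list was within 2-fold.

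X-linked genes were a large share of the genes higher in DAC2 and not of those higher in REF2. Of 292 X-linked genes at 5 or above, 39 (13.4%) were higher in DAC2 and 9 (3.08%) in REF2, against 73 (0.774%) and 297 (3.15%) of 9437 autosomal genes. The shift was spread over the chromosome's genes: the median X-linked difference was 0.44 with quartiles of 0.15 and 0.80, and 237 of 292 genes (81.2%) were above 0, against a median of -0.013 and 48.6% on the autosomes. Over 237 X-linked and 7880 autosomal genes at 5 or above in all lines, the X-linked median exceeded the autosomal one by 0.68 and 0.65 in the DAC2 arrays and by -0.015 and 0.052 in REF2. A1 and A2 lay between, from 0.26 to 0.39, and DAC8 and REF1, from 0.033 to 0.090, overlapped REF2. DAC2 was thus the highest line on this measure. These same genes had a median of 0.011 in DAC8 minus REF1 and 0.0063 in A1 minus A2.

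**Figure D4:**
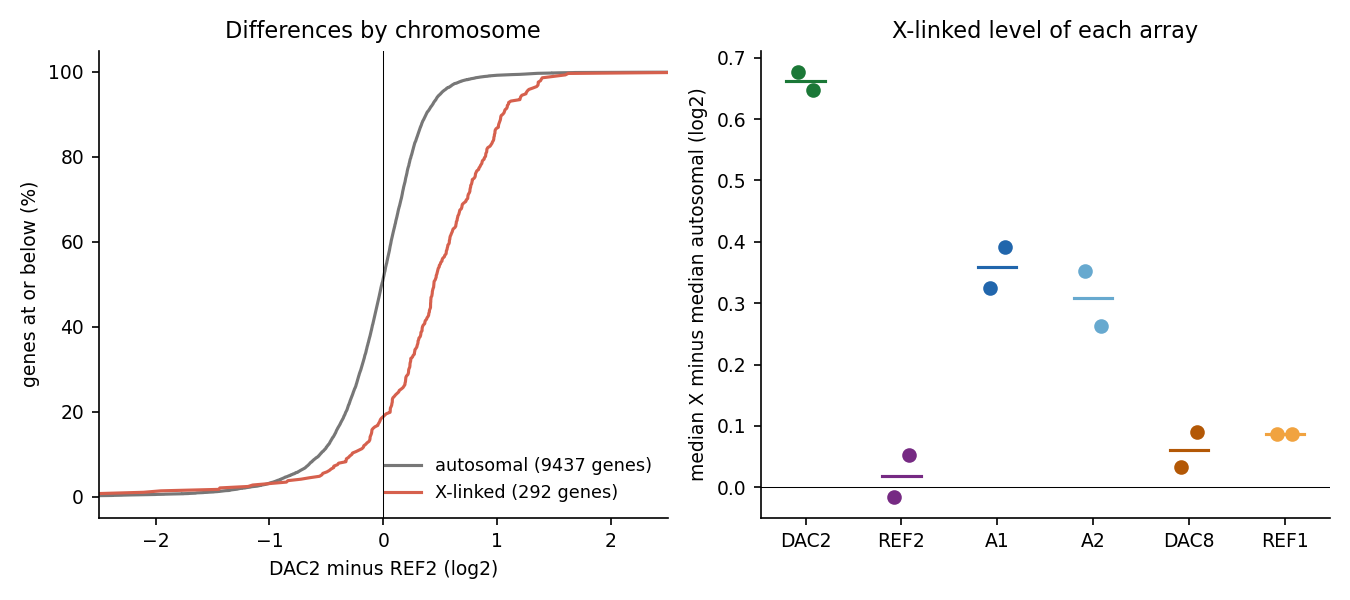
Left, cumulative share of genes (y axis, percent) by the log2 difference of DAC2 minus REF2 (x axis, cut at 2.5 on either side) for 292 X-linked and 9437 autosomal genes. Right, the median level of 237 X-linked genes minus that of 7880 autosomal genes on each array (points) with the mean of each line (bars). The X-linked curve is shifted to the right along most of its length, and the DAC2 arrays sit highest on the right.

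Among single X-linked genes, Dgkk, a diacylglycerol kinase, was the furthest towards DAC2, at 8.67 and 8.55 in DAC2 and 5.48 and 5.59 in REF2, and was below 3 in the other lines (2.73 in A1, 2.82 in A2, 2.61 in DAC8 and 2.94 in REF1). Nudt11, a phosphohydrolase of inositol pyrophosphates, measured 7.52 and 7.57 in DAC2 and 6.03 and 5.82 in REF2, with A1 (8.67) and A2 (8.47) above both. Gata1, a factor of red blood cell development, measured 8.10 and 7.91 in DAC2 and 6.66 and 6.55 in REF2 and was below 5 elsewhere. The translation factor gene Eif2s3 measured 11.18 and 11.21 in DAC2 and 10.15 and 10.20 in REF2, and Pdk3, a kinase that inhibits pyruvate dehydrogenase, 10.42 and 10.30 in DAC2 and 9.03 and 8.97 in REF2. For 28 of the 39 X-linked genes higher in DAC2, among them Dgkk, Gata1, Eif2s3 and Pdk3, the DAC2 arrays lay above all 10 others. The share among all X-linked genes was not counted. The 9 X-linked genes higher in REF2 included Dusp9, described above, and S100g, Glod5 and Dcx. S100g, a vitamin D-dependent calcium-binding protein, measured 6.01 and 5.97 in REF2 and 2.88 and 2.70 in DAC2. Glod5 measured 8.18 and 8.17 in REF2 and 5.71 and 5.53 in DAC2. Dcx, or doublecortin, a microtubule protein of migrating neurons, measured 6.84 and 6.76 in REF2 and 4.79 and 4.60 in DAC2. With probe sets averaged Dcx differed by -1.20. S100g was below 5 in every line but REF2, and Glod5 was also high in A1 (8.83) and A2 (9.13). On a list of X inactivation and dosage genes, 1 of 14 was higher in DAC2 and 1 in REF2, with a median of 0.54. Kdm5c (0.87), Hprt1 (0.75) and Atrx (0.65) were higher in DAC2 by less than 2-fold.

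The chosen probe sets of the 2 Y-linked members went in opposite directions. Eif2s3y, the Y-linked copy of Eif2s3, measured 10.67 and 10.74 in REF2 and 2.42 and 2.61 in DAC2. Its level was high in all other lines (10.45 in A1, 10.43 in A2, 8.97 in DAC8 and 8.91 in REF1), and DAC2 alone was below 5. Uty, a relative of the X-linked demethylase gene Kdm6a, measured 9.34 and 9.27 in DAC2 and 8.26 and 8.26 in REF2, with 7.58 in A1, 7.64 in A2, 7.79 in DAC8 and 8.02 in REF1. How far the Uty probes also read Kdm6a was not tested. A second Uty probe set was below 5 in both lines, and the mean of both sets differed by 0.65. Xist was outside the rule by its level, at 4.88 and 5.01 in REF2 and 2.96 and 2.65 in DAC2, while DAC8 (10.26 ± 0.04) and REF1 (10.44 ± 0.055) were high. Xist and Eif2s3y were thus both high in DAC8 and REF1, and both below 5 in DAC2.

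Genes of immunity, metabolism and stress differed singly rather than as lists. Of 26 antigen presentation and interferon genes, 1 was higher in DAC2 (RT1-T24-4, above) and 3 in REF2, with a median of -0.12. Ifi27, an interferon-inducible mitochondrial protein, measured 8.99 and 8.94 in REF2 and 7.08 and 6.87 in DAC2, Isg15, the ubiquitin-like interferon product, 8.21 and 8.15 in REF2 and 6.85 and 6.71 in DAC2, and Psmb9, an immunoproteasome subunit, 6.69 and 6.71 in REF2 and 5.63 and 5.61 in DAC2. REF2 was highest of all lines for Isg15 and Psmb9, while Ifi27 was about as high in A1, A2, DAC8 and REF1 as in REF2. Of 30 glutathione and detoxification genes, Aldh1a1, which makes retinoic acid, was the only member, at 7.85 and 7.86 in REF2 and 5.01 and 5.29 in DAC2, with no other line at 5. The list's median was -0.087.

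Of 30 glycolysis and hypoxia genes, 2 were higher in each line and the median was -0.040. Pfkm, the muscle phosphofructokinase, measured 8.27 and 8.28 in REF2 and 6.79 and 6.83 in DAC2, and Ndrg1, a hypoxia-induced gene, 10.40 and 10.43 in REF2 and 9.03 and 8.91 in DAC2. Pfkfb3, which makes an activator of phosphofructokinase, measured 8.55 and 8.52 in DAC2 and 7.54 and 7.45 in REF2, beside Pdk3 above. With probe sets averaged, Pfkm (-0.91) and Pfkfb3 (0.47) were within 2-fold. Hspb1, a small heat shock protein, was the single member among 23 amino acid and unfolded protein stress genes, at 8.15 and 7.99 in REF2 and 5.74 and 5.58 in DAC2, far below DAC8 (12.39) and REF1 (11.93). Of 15 p53 targets and CDK inhibitors, Phlda3, which restrains Akt, measured 7.82 and 7.96 in DAC2 and 6.52 and 6.66 in REF2, and Perp, a desmosome protein, 8.26 and 8.15 in DAC2 and 7.02 and 6.87 in REF2, while Cdkn1a (-0.07) and Mdm2 (-0.03) were within 2-fold. None of 17 cholesterol synthesis genes (median 0.065) and none of 18 threonine, serine and one-carbon genes (median 0.28) met the rule. Of 12 germline genes, Piwil2, a piRNA-binding protein of the testis, met it, at 7.68 and 7.47 in REF2 and 6.02 and 6.01 in DAC2.

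Markers of other cell types were compared because either culture could hold more than ES-like cells, and in bulk RNA fewer cells of a type and less RNA per cell cannot be told apart. Of 19 epithelial junction and keratin genes at 5 or above, 5 were higher in REF2 (26.3%) and 1 in DAC2 (5.26%, Crb3 at 1.04), with a median of 0.073. Krt8 and Krt18, which pair in the keratin filaments of simple epithelium and are neighbouring genes, measured 9.12 and 9.11 in REF2 and 6.91 and 6.71 in DAC2 and 11.55 and 11.40 in REF2 and 10.40 and 10.32 in DAC2. Cldn7, a tight junction claudin, measured 8.26 and 8.08 in REF2 and 6.84 and 6.97 in DAC2, Cldn4 7.77 and 7.63 in REF2 and 6.74 and 6.60 in DAC2, and the desmosome gene Dsp 9.89 and 9.96 in REF2 and 8.67 and 8.62 in DAC2. REF2 was highest of the 6 lines for Krt8, Krt18, Cldn7 and Dsp, and with probe sets averaged Dsp differed by -0.62. Cdh1 (0.07), Ocln (0.06) and Epcam (0.29) were within 2-fold. The summed signal of 22 epithelial genes was 13771.3 to 14712.9 in REF2, 11515.7 to 11985 in DAC2 and 632.134 to 1159.7 in the other lines.

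Of 11 endoderm markers at 5 or above, 4 were higher in REF2 (36.4%, against 3.15% of all genes at 5 or above) and 0 in DAC2. Their median was -0.60. The list's summed signal over 25 genes was 4050.96 to 4177.88 in REF2 and 3131.59 to 3160.08 in DAC2. Sox17, an endoderm transcription factor, measured 5.46 and 5.14 in REF2 and 2.63 and 2.41 in DAC2, and was higher in A1 (6.15) and A2 (6.60). Pdgfra, a receptor of primitive endoderm and mesenchyme, measured 6.26 and 6.47 in REF2 and 4.46 and 4.26 in DAC2, Col4a1, a basement membrane collagen, 6.07 and 6.26 in REF2 and 4.79 and 5.16 in DAC2, and Sparc, a matrix glycoprotein, 8.30 and 8.09 in REF2 and 7.14 and 7.17 in DAC2. With probe sets averaged Sox17 differed by -0.85 and was within 2-fold. Gata6 (0.00), Lama1 (0.02) and Ttr (0.16), further markers of that lineage, differed little. The part of endoderm-like cells in these values was not tested.

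Fibroblast markers held 4 genes higher in REF2 (25%) and 0 in DAC2 among 16, with a median of -0.13. Beside Pdgfra and Sparc these were Cdh2, or N-cadherin, at 7.55 and 7.43 in REF2 and 5.45 and 5.27 in DAC2, and Col6a3, a collagen chain, at 5.72 and 5.57 in REF2 and 4.53 and 4.60 in DAC2. With probe sets averaged Cdh2 differed by -1.10, and Col6a3, at -0.60, was within 2-fold. Other markers on the list did not follow: Col1a2, near 5 in both lines, differed by 0.37, Col5a1 by 0.52 and Fn1 by -0.02. Postn was below 5 in both lines. Of 8 neural markers Dcx alone met the rule, of 8 trophoblast markers Cdx2 was higher in DAC2 and Peg10 and Ets2, a transcription factor of trophoblast, higher in REF2 (Ets2, 9.62 and 9.48 in REF2 and 8.34 and 8.35 in DAC2), and of 7 blood markers Gata1 was higher in DAC2 and the lysozyme gene Lyz2 in REF2, at 6.33 and 6.31 in REF2 and 4.94 and 5.00 in DAC2. None of 7 endothelial, 2 primitive streak and 2 muscle markers at 5 or above met the rule.

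Whether the same genes also differ between other lines was tested by contrasts of lines whose difference the rule did not use. The fit estimated the spread, and applied the minimum level, over all 12 arrays, DAC2 and REF2 included. DAC8 and REF1, the other ES line and the other fibroblast culture by label, both carried fibroblast-like profiles, so the contrast is between lines of another state. In limma over 11001 genes, 99 of the 421 were called at a Benjamini-Hochberg adjusted p under 0.05 (23.5%), against 19.8% of all genes tested. They comprised 42 higher in DAC8 (11% of all genes) and 57 higher in REF1 (8.81%). The share was 25 of 114 for genes higher in DAC2 and 74 of 307 for those higher in REF2. Members at 2-fold or more with a level of 5 numbered 2 higher in DAC8 (0.691% of all genes) and 11 higher in REF1 (0.8%), or 3.09% of the 421 against 1.49% of all genes for both directions. The median DAC8 minus REF1 difference of the 421 was -0.028, and 126 were below 5 in both lines. Of all 11001 genes tested, 9825 had DAC8 or REF1 at 5 or above, so members were more often below 5 in both. Of the 99 calls, 86 had a line at 5 or above. That count was not made over all called genes, and the shares compare sets that differ in level. The gap to all genes rests on the fit. With only the 4 arrays of DAC8 and REF1, 79 of the 421 were called (18.8%, against 12% of all genes). With no filter 88 were called (20.9%, against 12.8%).

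The called genes included some of those furthest apart between DAC2 and REF2. H19 was lower in DAC8 than in REF1 by 2.29 ± 0.069 (log2, SE, adjusted p = 7.5e-07 in limma), and Fos by 1.09 ± 0.077 (adjusted p = 4.1e-05). Hoxa9 was lower in DAC8 by 0.43 ± 0.078 (adjusted p = 0.0053), whereas for Hoxa10 the difference was -0.0014 ± 0.095 (adjusted p = 0.99). Hoxa5 (-0.51, adjusted p = 0.031) and Hoxa7 (-0.87, adjusted p = 0.0017) were lower in DAC8 too. Col6a3 was lower in DAC8 by 3.94 ± 0.25, Reln, or reelin, by 2.44 ± 0.16, and Tgfbi, a matrix adhesion protein, by 1.38 ± 0.065, each at an adjusted p of at most 2.8e-05. Ptgs1 was lower by 1.24 ± 0.080, Stxbp6 was higher in DAC8 by 1.24, and Pir, an X-linked iron-binding protein, by 1.11. Of the 48 X-linked genes, 12 were called (25%), 8 of them higher in DAC8.

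**Figure D5:**
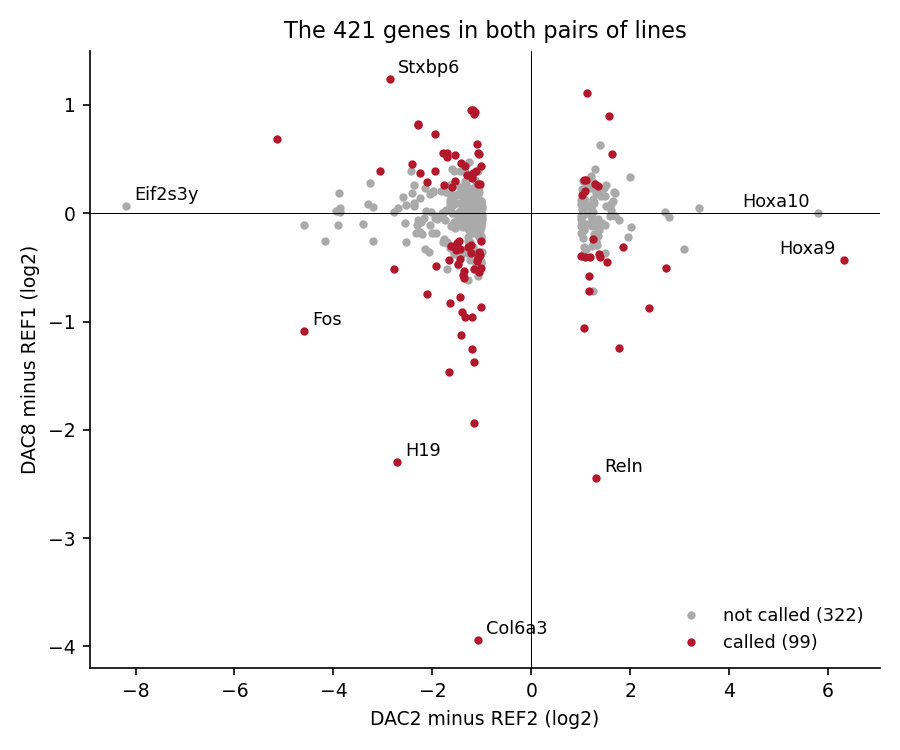
Log2 difference of DAC2 minus REF2 (x axis, empty between -1 and 1 by the rule) and of DAC8 minus REF1 (y axis) for the 421 genes. Red points are the 99 called in DAC8 against REF1 by limma at an adjusted p under 0.05, grey points those not called. Hoxa10 and Eif2s3y, far apart along the x axis, lie near 0 on the y axis, while Col6a3 and Reln lie low on it.

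Between the iPS lines fewer genes differed. In A1 against A2, 30 of the 421 were called (7.13%), against 1.81% of all genes, with 23 higher in A1 (1.25% of all genes) and 7 higher in A2 (0.554%). At 2-fold or more with a level of 5, 2 were higher in A1 (0.118% of all genes) and 1 in A2 (0.0727%), against 0.191% of all genes for both directions. The count rests on the fit. With only the 4 arrays of A1 and A2 it was 4 (0.95%, against 0.118% of all genes), with an intensity trend 47 (11.2% against 3.26%), and without 1 array of these lines 9 to 14 (2.14% to 3.33%, against 0.591% to 1% of all genes). In 123 of the 421 both lines were below 5, and 23 of the 30 calls had a line at 5 or above. Of all 11001 genes tested, 9626 had A1 or A2 at 5 or above. The calls among those were not counted, so these shares too compare sets that differ in level. Fos was higher in A1 by 1.90 ± 0.077 (adjusted p = 6.6e-06 in limma), at 10.71 and 8.80, and Gpat2, an acyltransferase of the germline, by 2.70 ± 0.21, at 5.35 and 2.65. Scn4b, a sodium channel subunit, was higher in A2 by 1.25 ± 0.11. Anxa2 (0.42), Ndrg1 (0.39) and Igfbp2 (0.98) were among those higher in A1, and Id3 (0.55) and Srgn (0.70) among those higher in A2. Hoxa9, Hoxa10 and Hoxa5 were also called, but both lines were below 5. Fos was the only one of the 421 genes called at 2-fold or more, with a level of 5, in both of these contrasts. By the rule that chose the 421, without a test, 164 genes (1.67%) were 2-fold apart between DAC8 and REF1, 76 higher in DAC8 (0.774%) and 88 in REF1 (0.896%). Between A1 and A2 there were 21 (0.218%), 13 higher in A1 (0.135%) and 8 in A2 (0.0831%).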

How the data were processed

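RNA of 12 arrays was measured as log2 signals of 31099 probe sets, deposited by the authors. They were made with RMA and Partek 6.2, per the submitters' processing notes. RMA subtracts background, aligns arrays and combines each set's probes, and it shrinks differences of dim genes. It is not known here if it was run on the arrays jointly. Nothing was rescaled, and precision is limited by the number of arrays.

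Of the probe sets, 20832 had 1 gene symbol in the platform's table, 436 had several and 9831 none, and 20764 were matched to a GRCr8 gene table used for chromosome class and neighbours. Of the 14218 genes, 4526 had more than 1 probe set, and the set with the highest 12-array mean was used. Neighbouring members were joined into a run across at most 1 other measured gene. Samples were grouped by the labels. DAC2 and REF2 were compared without a test. DAC8 with REF1, and A1 with A2, were contrasted by limma 3.58.1 in R 4.3.3, with 6 lines as the factor, empirical Bayes and Benjamini-Hochberg adjustment over 11001 genes whose highest line mean was 5 or above, which all 421 members pass by their rule. The fit was tested on simulated data.

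The members, gene lists and tests were chosen with earlier results of these data known. Named genes were the 15 autosomal members furthest apart in each direction, up to 4 members of each of 29 lists, the Y-linked members, 6 X-linked members and the checks Sox2, Esrrb, Klf2, Klf4 and Epcam. Others named were chosen after their values were seen. Alternatives were other probe set rules, levels, filters and scalings, an intensity trend, only the arrays compared, a replicate block and each array left out. Promoter windows came from RefSeq and cover 8199 of 9759 genes. Some pluripotency genes are not reported here.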

Additional observations from a re-analysis of the deposited data

How the results depend on the processing

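The 421 genes became 355 with probe sets averaged (339 of them among the 421), 453 with no minimum level (421 shared), 358 with a minimum of 6 (358 shared), 399 after quantile normalization (374 shared), 404 with equal array medians (364 shared), and 417 to 460 without 1 array of DAC2 or REF2 (388 to 402 shared). None of the 421 differences changed sign in these settings. Of the checks, Sox2 (0.073 with probe sets averaged, 0.0014 with equal medians) and Klf2 (0.0029 with probe sets averaged) did, and all 5 stayed within 2-fold. Reln (0.96), Lpar1 (0.98) and Crb3 (0.90) also fell within 2-fold with probe sets averaged. After quantile normalization Cldn4 (-0.93), Sparc (-0.93), Psmb9 (-0.96) and Gpat2 (-0.98) did, and with equal medians these 4 (-0.94, -0.95, -0.99 and -0.91) and Col6a3 (-0.99). Without 1 array, Eif2s3, Pfkfb3, Sparc, Cldn4, Crb3, Gnl3l, Gpat2 and Pdk4 each did at least once, at 0.93 or more in absolute difference. Without 1 array of DAC8 or REF1, the calls among the 421 numbered 58 to 77 (99 with all arrays), or 13.8% to 18.3% of them against 11.3% to 13.2% of all genes, of which 19 to 32 were higher in DAC8. Without 1 array of A1 or A2 they numbered 9 to 14 (30 with all), with 6 to 12 higher in A1 and 2 to 4 in A2. With only the 4 arrays of A1 and A2 the calls numbered 4, with 3 higher in A1 and 1 in A2. With no filter they numbered 19, with 3 higher in A2, and with an intensity trend 47, with 14 higher in A2. The labels do not say that replicate numbers pair the arrays. Deviations of same-numbered arrays correlated at -0.11 to 0.26 over 15 pairs of lines and above 0.1 in 4, among them DAC2 with REF2 (0.26) and A1 with A2 (0.21), with 0.0058 for DAC8 with REF1. The numbers were not taken to pair the arrays. With the replicate block the calls numbered 99 in DAC8 against REF1 and 26 in A1 against A2, with 4 higher in A2. The cause of these changes was not tested, and settings with fewer arrays or more genes tested lose calls by their construction in part.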

Other observations

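Other families held members on the REF2 side, chosen for mention after their values were seen. Of all genes at 5 or above, 3.15% were higher in REF2 and 1.17% in DAC2. Of 8 S100 genes at 5 or above, which encode small calcium-binding proteins, 5 were higher in REF2 and 0 in DAC2, with a median difference of -1.30 over the 8. S100a1 measured 8.79 and 8.58 in REF2 and 7.33 and 7.23 in DAC2, S100a13 9.64 and 9.61 in REF2 and 8.09 and 8.001 in DAC2, and S100a16 7.73 and 7.94 in REF2 and 6.12 and 6.27 in DAC2. These 3 are near neighbours and formed a run among the measured genes, and S100a6 differed by -1.19. S100a11 went the other way, at 0.31, without reaching 2-fold. Of 7 annexins, which bind membranes in a calcium-dependent way, 2 were higher in REF2 and all 7 were below 0, with a median of -0.65. Anxa2 measured 11.11 and 11.07 in REF2 and 9.72 and 9.63 in DAC2, and Anxa4 10.51 and 10.42 in REF2 and 9.23 and 9.28 in DAC2. With probe sets averaged Anxa2 differed by -0.97. Among 4 Bex genes, X-linked adaptor proteins, 3 were higher in DAC2, and Bex4 measured 11.57 and 11.58 in DAC2 and 10.39 and 10.34 in REF2. Of all 292 X-linked genes at 5 or above, 13.4% were higher in DAC2, with a median difference of 0.44.

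Some members were neighbours along the chromosomes. How many runs as many other genes would form was not counted, so the number of runs is a description only. Of 420 placed members, 64 lay in 28 runs of neighbouring measured genes that shared a direction, 20 on autosomes and 8 on the X chromosome, and 6 runs held 3 or more. Besides those already described, a run of Prkcd (-1.65), Sfmbt1 (-1.65) and Mustn1 (-1.40) was higher in REF2. On the X chromosome Gnl3l (1.01), Tsr2 (1.39) and Phf8 (1.20) formed a run higher in DAC2, as did Acot9 (1.10), Sat1 (1.36) and Prkx (1.06).

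Nnt, the mitochondrial transhydrogenase, measured 5.67 and 5.66 in REF2 and 3.70 and 3.27 in DAC2, against 8.98 ± 0.11 in A1, 8.79 ± 0.13 in A2, 9.86 ± 0.066 in DAC8 and 9.90 ± 0.095 in REF1. Both ES-like lines were low for this gene and DAC2 was below 5. Of 10216 probe sets without a single gene symbol, 175 met the same rule, 62 higher in DAC2 and 113 in REF2.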
